A study of Homo sapiens with 12 samples.

Results

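The aminoacyl-tRNA synthetases and their scaffold proteins were followed at the mRNA level in 2 hepatoma lines after knockdown of ARD1. The genes were chosen by name: 19 cytosolic enzymes or subunits, 16 mitochondrial enzymes, and the scaffold genes AIMP1, AIMP2 and EEF1E1, 38 in all of 25720 genes in the Hep-3B count table and 25714 in the Huh-7 table. All 38 had enough counts to be tested in both lines. Each of the 4 groups held 3 libraries: Hep-3B with siRNA against ARD1 (siARD1), Hep-3B with a negative control siRNA, Huh-7 with siARD1, and Huh-7 with the control siRNA. ARD1 is now called NAA10 and encodes the enzyme that, with its partner NAA15, acetylates the N termini of many new proteins. Total RNA was depleted of ribosomal RNA and made into directional libraries. For siRNA sequence, dose and time after transfection no source used here has an entry. Nor do the labels say whether the 3 libraries of a group came from separate cultures, so each p-value measures only the spread between these libraries, which may be technical.

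A synthetase recognises one amino acid and its transfer RNAs and joins them, which fixes the reading of the genetic code. Most animal enzymes come in a nuclear-encoded cytosolic form and a separate nuclear-encoded mitochondrial form, while GARS1 and KARS1 each give both forms from one gene. Several cytosolic enzymes sit with AIMP1, AIMP2 and EEF1E1 in the multi-synthetase complex. When amino acids are short, uncharged tRNA activates the kinase GCN2 (gene EIF2AK4), translation of the transcription factor ATF4 increases, and ATF4 is known to activate many cytosolic synthetase genes.

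Total counts per library were 17327615 to 25960237. NAA10 was lowered as labelled: it had 10.9, 15.6 and 14.4 CPM (read counts scaled to library size and composition, within each line's own fit, so that CPM of the lines are not on one scale) in Hep-3B siARD1 libraries, against 48.4, 58.7 and 58.7 CPM in Hep-3B controls. In Huh-7 it had 13.2, 9.86 and 9.99 CPM with siARD1, against 165, 156 and 200.2 CPM in controls. The groups did not overlap in either line, and the log2 fold changes were -2.01 in Hep-3B (SE 0.12, edgeR adjusted p = 1.361e-07) and -3.98 in Huh-7 (SE 0.13, edgeR adjusted p = 1.659e-08). Hepatocyte markers did not bear out the Hep-3B label: AFP was at 0.261 to 0.345 CPM with siARD1 and 1.02 to 1.97 CPM in controls labelled Hep-3B, against 3182 to 5281 CPM over the 6 Huh-7 libraries. ALB was at 0.564 to 1.09 CPM with siARD1 and 3.998 to 6.20 CPM in controls labelled Hep-3B, against 10689 to 12771 CPM over the Huh-7 libraries. Hep-3B below therefore means the libraries with that label. The 8 hepatocyte markers summed to 73.9 to 88.7 CPM in Hep-3B siARD1 libraries, where TTR had no count, and to 104 to 120 CPM in Hep-3B controls. In Huh-7 they summed to 24708 to 28559 CPM with siARD1 and to 32343 to 33498 CPM in controls. Of the markers tested, 4 of 6 fell in Hep-3B, where 15.3% of all genes tested fell. In Huh-7 4 of 8 fell, where 18.9% of all genes tested fell. In Huh-7 fibroblast markers summed to 29.1 to 30.9 CPM with siARD1 and 36.1 to 41.9 CPM in controls, and in Hep-3B keratinocyte markers summed to 9.12 to 9.72 CPM with siARD1 and 13.6 to 16.2 CPM in controls. Over all libraries the summed lists reached at most 174 CPM for fibroblasts, 76.1 CPM for endothelium and 16.2 CPM for keratinocytes, all in Hep-3B. Leukocyte markers reached at most 115 CPM, in Huh-7. Fibroblast markers in Hep-3B summed to 137 to 172 CPM with siARD1 and 162 to 174 CPM in controls. Both ranges lay above the hepatocyte sums of the same group. The part of these marker differences in the synthetase results was not tested, and in bulk RNA fewer cells of a type and less RNA per cell cannot be told apart.

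One control library stood apart for these genes. Hep-3B control replicate 1 was the lowest of the 3 controls for 16 of the 19 cytosolic synthetases, and their summed level there was 3760 CPM, against 4567 and 4818 CPM in the other Hep-3B controls. Its mitochondrial synthetases did not stand apart in the same way, since it was the lowest control for 4 of 16 and the highest for 5. Hep-3B control replicate 3 was the highest control for 16 of the 19 cytosolic genes. Spread was also present with siARD1, where Hep-3B replicate 2 was the lowest of its group for 13 of the 19. Its summed cytosolic level was 4739 CPM, against 5031 and 5068 CPM in the other Hep-3B siARD1 libraries. Members whose Hep-3B call changes without control 1 are given with and without it, as are the cytosolic and mitochondrial counts of rises and falls. Other Hep-3B values rest on all 3 controls unless stated.

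In Huh-7 nearly the whole cytosolic set rose together. Of 19 cytosolic genes, 18 rose and 0 fell (edgeR, Benjamini-Hochberg adjusted p under 0.05), where 40.1% of all 15919 genes tested were called, 21.2% rising and 18.9% falling. Their median log2 fold change was 0.37, against -0.01 over all genes tested, and single genes lay between -0.06 and 0.82. The 16 mitochondrial genes gave 4 rises and 0 falls with a median of 0.17, and of the 3 scaffold genes AIMP2 rose. In Hep-3B the cytosolic genes split, with 6 rises and 4 falls of 19, where 32.2% of 15762 genes were called, 16.8% rising and 15.3% falling. Mitochondrial synthetases there gave 0 rises and 5 falls of 16. The cytosolic median was 0.07, the mitochondrial median was -0.26, and the median over all genes tested was -0.01. Without Hep-3B control 1 the cytosolic median was 0.0032 and the mitochondrial median -0.23. By separation alone, siARD1 libraries lay above all controls for 17 cytosolic genes in Huh-7 and below them for 1, where 50.0% of all genes were apart, 26.1% above and 23.9% below. In Hep-3B they lay above for 7 cytosolic genes and below for 4, and below for 8 of the 16 mitochondrial genes, where 45.0% of all genes were apart, 22.7% above and 22.3% below.

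**Figure D1:**
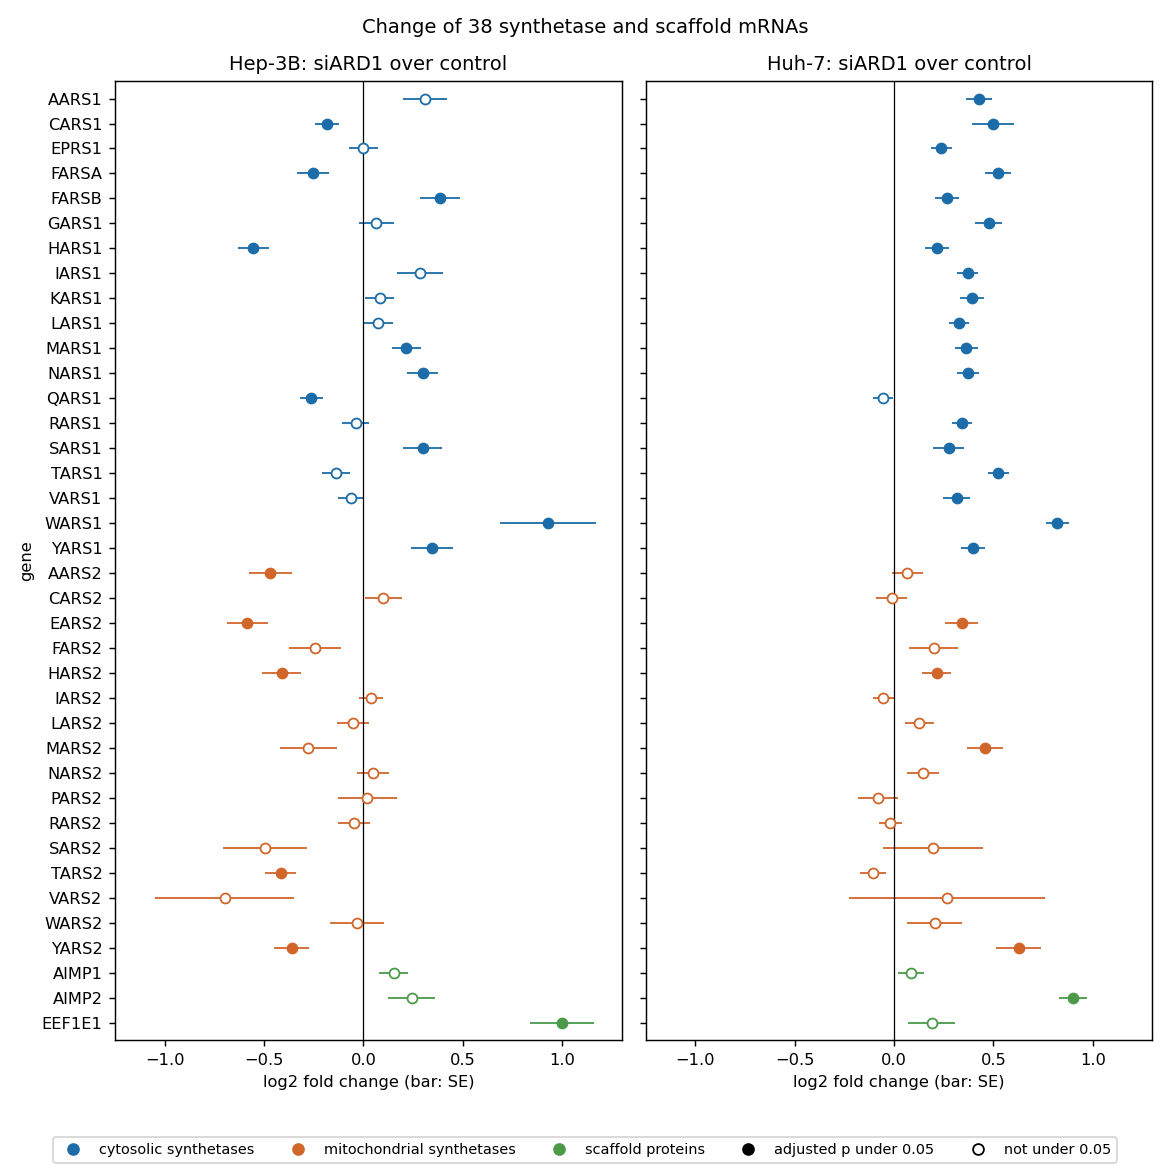
Log2 fold change of siARD1 over control for each of the 38 genes in Hep-3B and in Huh-7, with SE bars; filled points passed an edgeR adjusted p of 0.05. In Huh-7 18 of 19 cytosolic points (blue) are filled and right of 0, while in Hep-3B 5 of 16 mitochondrial points (orange) are filled and all of those lie left of 0.

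The promoter sequences are shown because ATF4 target genes were among those examined and because one motif recurs in the cytosolic class. The table of RefSeq promoters (GRCh38.p14, 250 bases before to 50 after each start) held 16 of the 19 cytosolic, 14 of the 16 mitochondrial and all 3 scaffold genes. The motif searched on both strands was TGATGNAA, the core of the composite element that ATF4 binds with C/EBP partners. It lay in promoters of 7 of the 16 cytosolic genes and of 1 of the 14 mitochondrial genes, against 4.46% of 27305 genes and 3.62% of 35116 promoters in the table. It was found for 0 of the 3 scaffold genes. The stretches below are written 5′ to 3′ on the strand of the gene, with the match in capitals, and TTGCATCA or TTTCATCA is the motif read on the other strand.
AARS1 (chr16:70289675-70289704, minus strand): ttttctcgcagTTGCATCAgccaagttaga
CARS1 (chr11:3057407-3057436, minus strand): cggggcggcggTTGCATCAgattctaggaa
GARS1 (chr7:30594834-30594863, plus strand): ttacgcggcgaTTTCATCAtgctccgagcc
IARS1 (chr9:92293692-92293721, minus strand): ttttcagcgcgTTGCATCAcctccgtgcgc
MARS1 (chr12:57488053-57488082, plus strand): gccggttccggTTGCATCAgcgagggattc
NARS1 (chr18:57621804-57621833, minus strand): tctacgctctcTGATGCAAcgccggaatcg
TARS1 (chr5:33440956-33440985, plus strand): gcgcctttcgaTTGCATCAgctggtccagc
YARS2 (chr12:32756076-32756105, minus strand): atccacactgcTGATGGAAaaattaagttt
The first base of the match lay 2 bases before the annotated start in CARS1, 4 in MARS1, 13 in IARS1 and 33 in GARS1, and 187 in AARS1. In NARS1 and TARS1 the match began just after the start, and in YARS2 it began 197 bases before it. A match is a string of letters and not a binding measurement. In Huh-7 all 7 cytosolic genes with a match rose, as did 8 of the 9 whose promoter in the table had none. In Hep-3B, MARS1 and NARS1 rose, CARS1 fell, and AARS1, GARS1, IARS1 and TARS1 were not called. An E-box search (CACGTG, 8.77% of genes) gave 1 cytosolic gene (IARS1, where it does not overlap the motif above), 3 mitochondrial genes (CARS2, EARS2 and MARS2) and the scaffold gene AIMP2. A search for the NRF1 motif, present in 1.52% of genes, gave 0 cytosolic, 1 mitochondrial (MARS2) and 0 scaffold genes, and these 3 motifs were all that were searched.

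WARS1 (GENCODE v29, GRCh38: chr14:100333788-100376805, minus strand), which charges tRNA with tryptophan and is also known as an interferon-induced gene, had the largest cytosolic change in both lines. In Huh-7 it had 99.2, 100.01 and 90.9 CPM in siARD1 libraries, against 54.3, 53.8 and 56.0 CPM in controls. In Hep-3B it had 241, 230 and 242 CPM in siARD1 libraries, against 83.2, 144 and 148 CPM in controls. Every siARD1 library lay above every control of its line, and the lowest Hep-3B control was replicate 1. The log2 fold change was 0.82 in Huh-7 (SE 0.06, edgeR adjusted p = 6.297e-10) and 0.93 in Hep-3B (SE 0.24, edgeR adjusted p = 0.04092). Without Hep-3B control 1 the Hep-3B value was 0.71 with an edgeR adjusted p of 5.237e-08, and leaving out any 1 siARD1 library instead gave edgeR adjusted p of 0.1189 to 0.1352 at 0.92 to 0.95. With no count filter the Hep-3B call was also lost (edgeR adjusted p = 0.08994). WARS1 has an annotated processed copy, WARS1P1, so a few of its reads could be split between the copies.

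Next in Huh-7 came TARS1 and FARSA. TARS1, the threonine enzyme, had 262, 247 and 230 CPM in Huh-7 siARD1 libraries, against 175, 168 and 171 CPM in controls (log2 fold change 0.53, SE 0.05, edgeR adjusted p = 1.473e-07). In Hep-3B its groups overlapped, at 277, 260 and 262 CPM with siARD1 and 263, 293 and 325 CPM in controls, and the change of -0.14 was not called. Without control 1 it was -0.21 and passed (edgeR adjusted p = 0.01255), so the threonine enzyme then ran in opposite directions in the 2 lines.

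The phenylalanine enzyme is built from the alpha subunit FARSA and the beta subunit FARSB, and its subunits parted in Hep-3B. FARSA had 38.2, 40.5 and 37.7 CPM with siARD1, against 43.5, 44.6 and 50.8 CPM in Hep-3B controls, with no overlap (log2 fold change -0.26, SE 0.08, edgeR adjusted p = 0.02213). FARSB had 70.0, 59.7 and 76.8 CPM with siARD1, against 47.6, 50.6 and 59.9 CPM in Hep-3B controls, where the lowest siARD1 library lay just under the highest control (0.39, SE 0.10, edgeR adjusted p = 0.009543). In Huh-7 both subunits rose, FARSA by 0.52 and FARSB by 0.26 on the log2 scale (edgeR adjusted p = 1.523e-06 and 0.001451). FARSB was called with each Hep-3B library left out in turn, whereas FARSA lost its Hep-3B call without siARD1 replicate 1, siARD1 replicate 3 or control 3 (edgeR adjusted p 0.0795 to 0.1206).

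HARS1, the histidine enzyme, gave the largest cytosolic fall in Hep-3B. It had 27.8, 26.7 and 26.1 CPM in siARD1 libraries, against 39.3, 38.2 and 40.7 CPM in Hep-3B controls, and changed by -0.55 on the log2 scale (SE 0.08, edgeR adjusted p = 6.909e-05). In Huh-7 it had 69.9, 73.4 and 78.2 CPM with siARD1, against 62.6, 62.9 and 65.1 CPM in controls (0.22, SE 0.06, edgeR adjusted p = 0.006693). The groups were apart in both lines and on opposite sides. HARS1 and its mitochondrial counterpart HARS2 are head-to-head neighbours on chromosome 5 (GENCODE v29, GRCh38: HARS1 chr5:140673904-140691862, minus strand; HARS2 chr5:140691426-140699318, plus strand), and their exons share 437 bases on opposite strands. HARS2 went the same way as HARS1 in each line: it fell by 0.41 in Hep-3B (edgeR adjusted p = 0.004187) and rose by 0.21 in Huh-7 (edgeR adjusted p = 0.02216). No source used here states whether strand was used in counting, so reads over the shared bases may belong to either gene.

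QARS1, which charges tRNA with glutamine, was the cytosolic gene that did not rise in Huh-7. It had 191, 187 and 191 CPM in Huh-7 siARD1 libraries, against 194, 203 and 194 CPM in controls, where the siARD1 values lay just below all controls (log2 fold change -0.06, 95% interval of the fold 0.899 to 1.03, edgeR adjusted p = 0.3995). In Hep-3B it had 126, 123 and 120 CPM with siARD1, against 151, 145 and 146 CPM in controls, and fell by 0.26 on the log2 scale (SE 0.06, edgeR adjusted p = 0.002477). CARS1, the cysteine enzyme, went opposite ways. It had 80.6, 74.5 and 59.2 CPM in Huh-7 siARD1 libraries, against 56.2, 48.0 and 47.8 CPM in controls, and rose by 0.50 (edgeR adjusted p = 0.003011). In Hep-3B it had 244, 230 and 237 CPM with siARD1, against 250.2, 273 and 283 CPM in controls. That fall of 0.18 (edgeR adjusted p = 0.03162) was lost on leaving out any 1 Hep-3B library other than control 1 (adjusted p 0.06956 to 0.1396). CARS1 has 2 annotated pseudogenes.

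The remaining Hep-3B rises were NARS1 for asparagine (log2 fold change 0.30, edgeR adjusted p = 0.008338), YARS1 for tyrosine (0.34, adjusted p = 0.03253), SARS1 for serine (0.30, adjusted p = 0.03965) and MARS1 for methionine (0.22, adjusted p = 0.02738). Of these, NARS1 was called with each library left out in turn. MARS1 was 0.13 without control 1 and then not called (edgeR adjusted p = 0.08098), nor was it called without siARD1 replicate 1 or 3 (0.07139 and 0.08039), while SARS1 and YARS1 kept their calls without control 1, at 0.18 and 0.22, but lost them without siARD1 replicate 1 or 3 (edgeR adjusted p 0.08651 to 0.1428). All 4 rose in Huh-7, between 0.28 for SARS1 and 0.40 for YARS1. SARS1 overlapped there, at 86.0 to 107 CPM with siARD1 and 72.6 to 86.2 CPM in controls, and lost its call without siARD1 replicate 1 (edgeR adjusted p = 0.05226). The MARS1 locus overlaps the stress gene DDIT3 over 355 exon bases on the opposite strand, and DDIT3 also rose in Huh-7, as given below.

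AARS1, the alanine enzyme, and IARS1, the isoleucine enzyme, were not called in Hep-3B although every siARD1 library lay above every control. AARS1 had 865, 779 and 897 CPM with siARD1, against 553, 753 and 744 CPM in Hep-3B controls (log2 fold change 0.31, SE 0.11, edgeR adjusted p = 0.0644). IARS1 had 742, 733 and 749 CPM with siARD1, against 485, 647 and 696 CPM in Hep-3B controls (0.28, SE 0.11, edgeR adjusted p = 0.08789). AARS1 was called on leaving out any 1 Hep-3B control, at 0.18 without control 1, 0.38 without control 2 and 0.38 without control 3 (edgeR adjusted p = 0.03001, 0.02332 and 0.04477). IARS1 was 0.15 without control 1, not called (edgeR adjusted p = 0.05011), and 0.39 without control 3, called (0.01112). Both were also called by DESeq2 (adjusted p = 0.008835 for AARS1 and 0.01798 for IARS1), with no count filter (edgeR adjusted p = 3.551e-06 and 2.648e-05) and in one edgeR fit of all 4 groups (0.03683 and 0.02014). In Huh-7 AARS1 rose by 0.43 and IARS1 by 0.37 on the log2 scale (edgeR adjusted p = 1.946e-05 and 7.953e-06).

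The other 6 cytosolic genes were EPRS1, GARS1, KARS1, LARS1, RARS1 and VARS1. EPRS1 is the fused glutamate and proline enzyme, and the others charge glycine, lysine, leucine, arginine and valine. In Hep-3B none of them was called, with values from -0.06 for VARS1 to 0.08 for KARS1 and overlapping groups. Without control 1 none was called either, and they ran from -0.08 for VARS1 to 0.0143 for RARS1. In Huh-7 each rose with no overlap, from 0.24 for EPRS1 to 0.48 for GARS1 (edgeR adjusted p from 1.871e-05 for LARS1 to 0.001183 for EPRS1). GARS1 had 483, 429 and 382 CPM in Huh-7 siARD1 libraries, against 322, 299 and 310 CPM in controls, and KARS1 had 286, 298 and 315 CPM, against 207, 243 and 235 CPM.

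Genes inside and outside the multi-synthetase complex were also counted apart. Of its 7 cytosolic genes in the set (EPRS1, IARS1, KARS1, LARS1, MARS1, QARS1 and RARS1) 6 rose in Huh-7, with a median of 0.34. Outside it 12 of 12 rose in Huh-7 with a median of 0.41, where 21.2% of all genes tested rose. In Hep-3B the complex members gave 1 rise and 1 fall of 7, near the 16.8% and 15.3% of all genes, and those outside gave 5 rises and 3 falls of 12. Without Hep-3B control 1 these counts were 0 rises and 1 fall of 7, and 6 rises and 4 falls of 12. In that fit 16.7% of all genes tested rose and 14.2% fell.

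**Figure D2:**
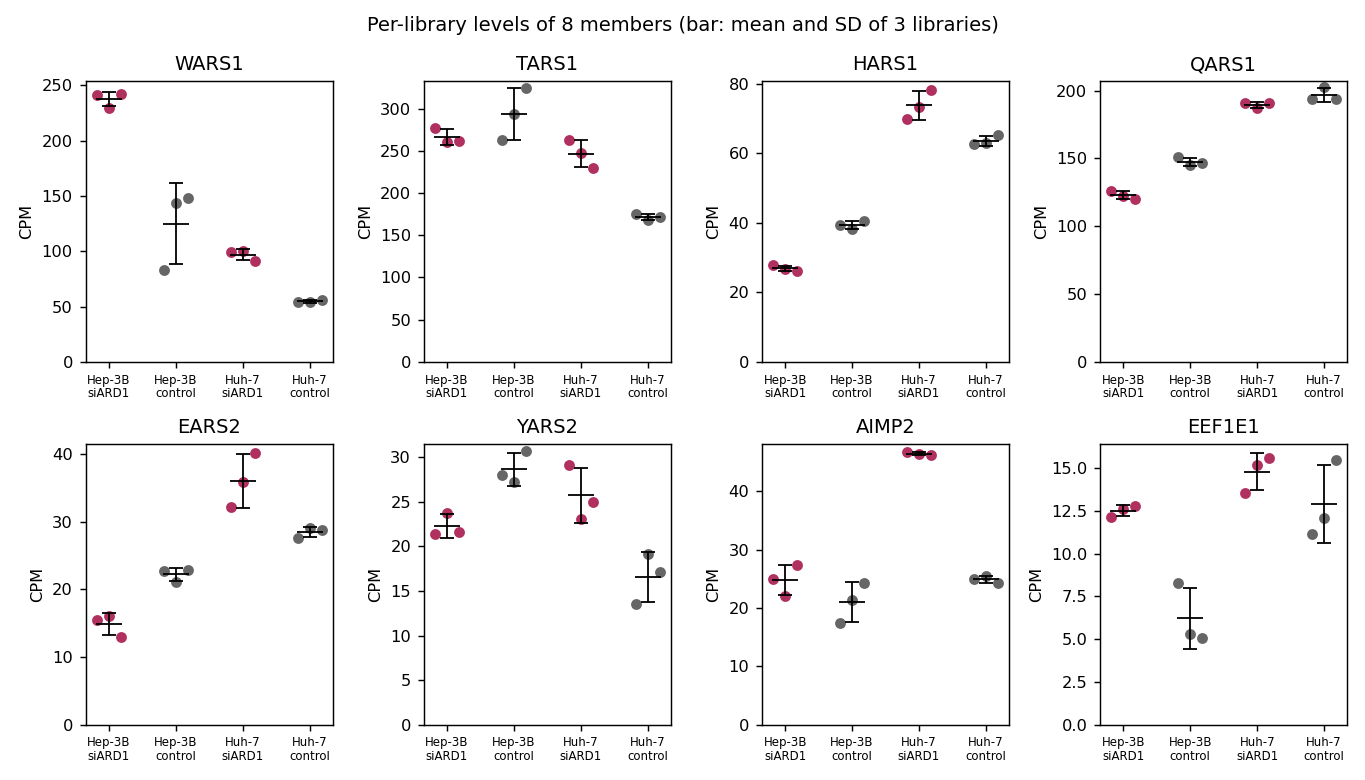
CPM in each library for WARS1, TARS1, HARS1, QARS1, EARS2, YARS2, AIMP2 and EEF1E1, with siARD1 left of control in each line and the mean and SD of 3 libraries in black; CPM are scaled within each line. HARS1, EARS2 and YARS2 are lower with siARD1 in Hep-3B and higher in Huh-7, AIMP2 is apart from its controls in Huh-7 and overlaps them in Hep-3B, and EEF1E1 is apart in Hep-3B and overlaps in Huh-7.

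Among the mitochondrial enzymes EARS2 gave the largest called fall in Hep-3B. EARS2 loads glutamate, and in mitochondria also the tRNA for glutamine, whose glutamate is then amidated by the complex of QRSL1, GATB and GATC. It had 15.5, 16.1 and 13.0 CPM in Hep-3B siARD1 libraries, against 22.7, 21.2 and 22.9 CPM in controls (log2 fold change -0.58, SE 0.10, edgeR adjusted p = 4.998e-04). In Huh-7 it had 32.1, 35.9 and 40.2 CPM with siARD1, against 27.6, 29.01 and 28.8 CPM in controls (0.34, SE 0.08, edgeR adjusted p = 0.002262). The groups were apart in both lines, below the controls in Hep-3B and above them in Huh-7. YARS2, for tyrosine, did the same. It had 21.4, 23.8 and 21.7 CPM with siARD1 against 28.0, 27.3 and 30.7 CPM in Hep-3B controls, and 29.2, 23.1 and 25.0 CPM with siARD1 against 13.5, 19.1 and 17.1 CPM in Huh-7 controls. Its log2 fold changes were -0.36 in Hep-3B (edgeR adjusted p = 0.005564) and 0.63 in Huh-7 (edgeR adjusted p = 2.499e-04), the largest of the mitochondrial genes in Huh-7.

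AARS2 for alanine and TARS2 for threonine fell in Hep-3B and were not called in Huh-7. AARS2 had 12.6, 16.3 and 14.5 CPM with siARD1, against 20.2, 19.7 and 20.3 CPM in Hep-3B controls (log2 fold change -0.47, edgeR adjusted p = 0.003188). TARS2 had 33.2, 32.5 and 31.9 CPM with siARD1, against 44.0, 40.5 and 45.6 CPM in Hep-3B controls (-0.42, edgeR adjusted p = 6.979e-04). In both genes all siARD1 libraries lay below all Hep-3B controls. Their Huh-7 changes were 0.07 for AARS2 and -0.11 for TARS2, with overlapping groups. MARS2 for methionine showed the reverse pattern of calls, with 21.7, 20.8 and 21.5 CPM in Huh-7 siARD1 libraries against 15.7, 14.3 and 16.5 CPM in controls (0.46, SE 0.09, edgeR adjusted p = 3.639e-04), and -0.28 in Hep-3B, not called.

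All 5 mitochondrial falls in Hep-3B were called with each of the 6 libraries left out in turn, control 1 included. Of the 4 Huh-7 rises, EARS2, MARS2 and YARS2 were too, while HARS2 lost its call in 4 of these refits (edgeR adjusted p 0.05003 to 0.1052). The other 10 mitochondrial genes, CARS2, FARS2, IARS2, LARS2, NARS2, PARS2, RARS2, SARS2, VARS2 and WARS2, were called in neither line. IARS2, the most abundant, had 163 to 171 CPM with siARD1 and 152 to 170.2 CPM in Hep-3B controls, with a 95% interval of the fold of 0.945 to 1.12. In Huh-7 that interval was 0.896 to 1.035, and for RARS2, the arginine enzyme, it was 0.867 to 1.08 in Hep-3B and 0.912 to 1.07 in Huh-7. SARS2 and VARS2 were the least counted members, with 137 and 38 counts summed over the Hep-3B siARD1 libraries and 179 and 57 over the controls. Their Hep-3B values of -0.49 and -0.70 had no overlap but were not called (edgeR adjusted p = 0.0864 and 0.1401). In GENCODE v29, 46.2% of the SARS2 exon bases and 22.0% of those of VARS2 are shared with another gene on the same strand, so these counts may hold only part of their reads.

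Among the scaffold genes AIMP2 rose in Huh-7 and EEF1E1 in Hep-3B. AIMP2 had 46.7, 46.3 and 46.3 CPM in Huh-7 siARD1 libraries, against 24.9, 25.5 and 24.2 CPM in controls, which did not overlap. It rose by 0.90 on the log2 scale (SE 0.07, edgeR adjusted p = 2.145e-09), the largest value among the 38 genes in that line. In Hep-3B its groups overlapped, at 25.0, 22.1 and 27.3 CPM with siARD1 and 17.4, 21.3 and 24.3 CPM in controls (0.24, SE 0.12, edgeR adjusted p = 0.1323). Without Hep-3B control 3 it was called there at 0.36 (edgeR adjusted p = 0.03891), and without control 1 it was 0.12 and not called (0.4328). EEF1E1, also known as AIMP3 or p18, had 12.1, 12.6 and 12.8 CPM in Hep-3B siARD1 libraries, against 8.26, 5.28 and 5.10 CPM in controls, which did not overlap. Its log2 value of 0.999 (SE 0.16, edgeR adjusted p = 2.314e-04) was the largest of the 38 in Hep-3B, and it was 1.28 without control 1. In Huh-7 it had 13.6, 15.2 and 15.6 CPM with siARD1, against 11.2, 12.1 and 15.5 CPM in controls, which overlapped (0.19, edgeR adjusted p = 0.2121), and without Huh-7 control 3 it was called at 0.35 (edgeR adjusted p = 0.03714). AIMP1 was not called in either line, at 0.15 in Hep-3B and 0.08 in Huh-7, and was called in Hep-3B without siARD1 replicate 2 (0.21, edgeR adjusted p = 0.04364). Of the AIMP2 exon bases 28.9% lie opposite the kinase gene EIF2AK1, and 18.7% of those of EEF1E1 are also in the read-through gene EEF1E1-BLOC1S5, so both values carry that uncertainty of assignment.

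Averaged over each class, levels per library can be set side by side. The mean log2(CPM + 1) of the cytosolic genes was 7.72, 7.69 and 7.64 in Huh-7 siARD1 libraries, against 7.32, 7.30 and 7.32 in controls. In Hep-3B it was 7.58, 7.505 and 7.58 with siARD1, against 7.29, 7.49 and 7.58 in controls, which overlapped. For the mitochondrial genes it was 4.04, 4.07 and 4.04 in Hep-3B siARD1 libraries, against 4.26, 4.21 and 4.28 in controls, all siARD1 libraries being lower. In Huh-7 it was 4.61, 4.63 and 4.74 with siARD1, against 4.47, 4.56 and 4.53 in controls, all siARD1 libraries being higher. The cytosolic median change exceeded the mitochondrial one by 0.33 in Hep-3B and 0.20 in Huh-7 on the log2 scale. Leaving out 1 Hep-3B library put the Hep-3B difference between 0.24, without control 1, and 0.43, without control 3. Without control 1 there were 6 cytosolic rises and 5 falls (16.7% and 14.2% of all genes tested in that fit) and again 0 rises and 5 falls among the mitochondrial genes.

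**Figure D3:**
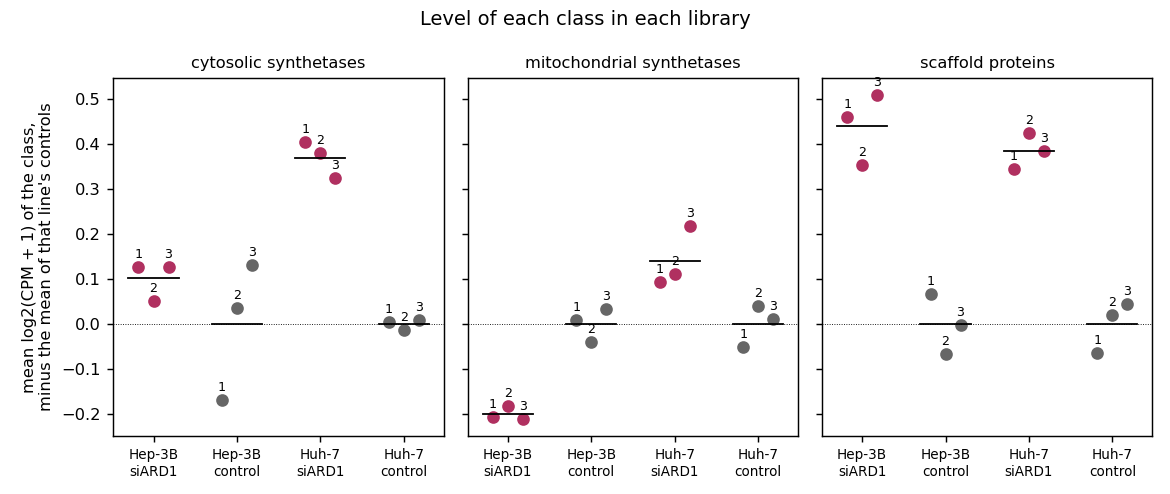
Mean log2(CPM + 1) of each class in each library, less the mean of the controls of that line; numbers give the replicate and lines the group mean. Hep-3B control 1 lies lowest for the cytosolic class, and the mitochondrial class lies below the controls with siARD1 in Hep-3B and above them in Huh-7.

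Compared gene by gene across the lines, 6 cytosolic genes rose in both (FARSB, MARS1, NARS1, SARS1, WARS1 and YARS1), a pattern held by 4.55% of the 13800 genes tested in both. Another 6 members fell in Hep-3B and rose in Huh-7, CARS1, FARSA and HARS1 in the cytosolic class and EARS2, HARS2 and YARS2 in the mitochondrial class, against 4.08% of all genes. No member fell in both lines, as 3.69% of all genes did, and none rose in Hep-3B and fell in Huh-7, as 3.67% did. These patterns use all Hep-3B controls. Without control 1 MARS1 was no longer called in Hep-3B, AARS1 was called higher there and TARS1 lower.

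The difference itself, Hep-3B effect minus Huh-7 effect, was tested in one edgeR fit of the 4 groups. Of the 38 genes 15 were called lower and 1 higher, where 31.4% of all 17122 genes tested were called, 15.2% lower and 16.2% higher. The 8 cytosolic ones were FARSA (-0.76), HARS1 (-0.75), CARS1 (-0.66), TARS1 (-0.65), GARS1 (-0.39), VARS1 (-0.36), RARS1 (-0.36) and KARS1 (-0.29), with edgeR adjusted p from 1.392e-06 for HARS1 to 0.02918 for GARS1. With 1 of the 12 libraries left out in turn, GARS1 was called in 3 of 12 refits (edgeR adjusted p up to 0.07564), KARS1 in 7 of 12 (up to 0.1163) and TARS2, given next, in 7 of 12 (up to 0.08299). Among mitochondrial genes the difference was called for YARS2 (-0.97), EARS2 (-0.91), MARS2 (-0.72), HARS2 (-0.61), AARS2 (-0.52) and TARS2 (-0.29). AIMP2 gave -0.64 (edgeR adjusted p = 7.143e-04) and EEF1E1 gave 0.82 (edgeR adjusted p = 0.003637). WARS1 did not differ detectably between the lines, at 0.12 with an SE of 0.26. Without Hep-3B control 1 the cytosolic count was 14, since AARS1, EPRS1, IARS1, LARS1, MARS1 and QARS1 then passed as well, and the mitochondrial count was 6.

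**Figure D4:**
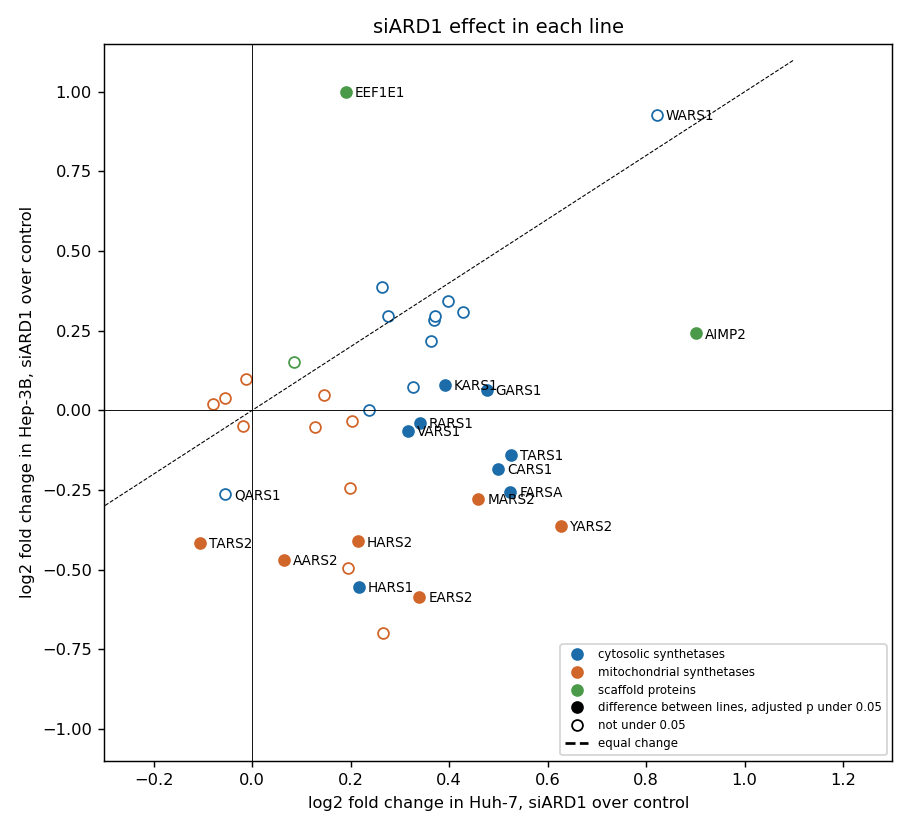
Log2 fold change in Hep-3B (vertical) against that in Huh-7 (horizontal), siARD1 over control in each, for the 38 genes; filled points differ between the lines at an edgeR adjusted p under 0.05 and the dashed line marks equal change. All filled points but EEF1E1 lie under the dashed line, and WARS1 lies near it.

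With the control siRNA the 2 lines differed in most of these genes, as they did in most of all genes tested. Between control libraries 13 of the 38 were higher and 16 lower in Hep-3B than in Huh-7, where 80.7% of all genes tested differed, 40.0% higher and 40.7% lower. These folds come from one fit of the 4 groups, whose scaling spans both lines. CARS1 differed most, at a 5.96-fold higher level in Hep-3B controls than in Huh-7 controls (log2 difference 2.57, SE 0.09, edgeR adjusted p = 1.151e-17). SARS1 was 3.49-fold and WARS1 2.56-fold higher in Hep-3B, and YARS1, YARS2, TARS1, NARS2, LARS1 and IARS1 were 1.81-fold to 1.97-fold higher. VARS2 was 2.02-fold higher on few counts (57 over the Hep-3B controls and 32 over the Huh-7 controls, edgeR adjusted p = 0.03577). The lowest ratios belonged to RARS2 at 0.39-fold, AARS2 at 0.47-fold, RARS1 at 0.52-fold, EEF1E1 at 0.54-fold and FARSA at 0.55-fold, so both arginine enzymes were lower in Hep-3B.

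Levels can be compared between genes only per length, here as TPM (counts per exon length, scaled to the library) from GENCODE v29 exon lengths. AARS1 was the most abundant member in controls of both lines, at 559 ± 87.0 TPM in Hep-3B and 514 ± 33.8 TPM in Huh-7. Behind it in Hep-3B came IARS1 at 303 ± 51.6 TPM and GARS1 at 273 ± 38 TPM, whose spreads overlap, and in Huh-7 GARS1 at 264 ± 15.4 TPM and IARS2 at 234 ± 5.68 TPM. Over genes, the median was 143 TPM with siARD1 and 121 TPM in controls for the cytosolic class in Hep-3B, and 12.3 and 15.8 TPM for the mitochondrial class. In Huh-7 it was 151 TPM with siARD1 and 135 TPM in controls for the cytosolic class, and 25.8 and 23.0 TPM for the mitochondrial class. IARS2 and RARS2 were the most abundant mitochondrial enzymes in Huh-7 controls, RARS2 at 139 ± 1.62 TPM, and both lay above the cytosolic median. The lowest cytosolic gene there was CARS1 at 17.8 ± 2.07 TPM, so the classes overlapped. HARS1 was the one cytosolic enzyme with a mean TPM below its mitochondrial counterpart in controls of both lines, at 0.654 times HARS2 in Hep-3B and 0.8001 times in Huh-7. IARS1 was at 0.767 times IARS2 in Huh-7 controls. These rankings depend on the lengths used, which merge all annotated exons: 7853 bases for HARS1 and 3736 for HARS2. Without length, control means were 39.4 CPM for HARS1 and 28.7 CPM for HARS2 in Hep-3B, and 63.5 and 37.8 CPM in Huh-7. IARS1 and IARS2 were at 376 and 276 CPM in Huh-7 controls. The ratio of summed cytosolic to summed mitochondrial TPM was 7.90, 7.44 and 7.96 in Hep-3B siARD1 libraries, against 5.55, 6.74 and 6.68 in controls. In Huh-7 it was 5.40, 5.30 and 4.57 with siARD1, against 4.25, 3.94 and 4.06 in controls. In both lines every siARD1 library lay above every control.

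**Figure D5:**
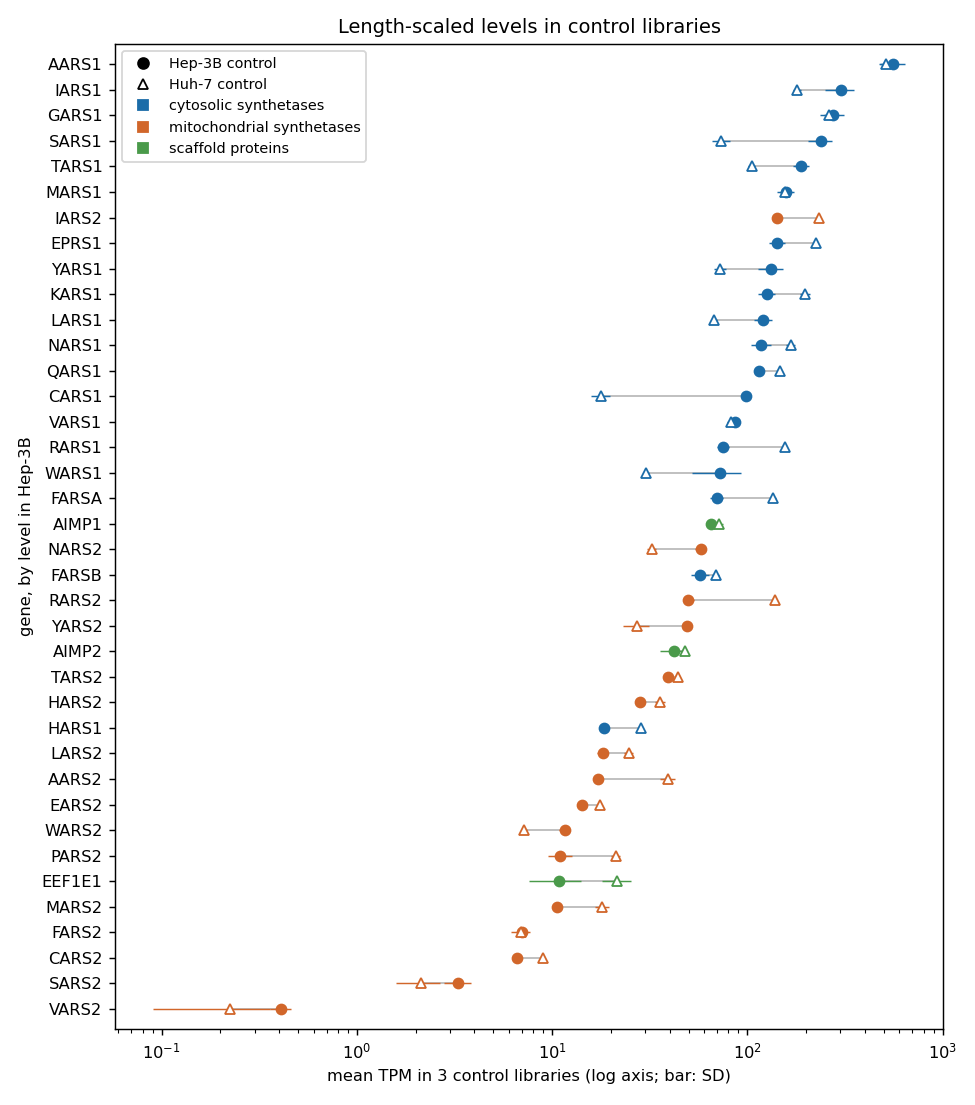
Mean TPM of each gene in the 3 control libraries of Hep-3B (filled circles) and Huh-7 (open triangles) on a log axis with SD bars, ordered by level in Hep-3B. AARS1 is highest in both lines, SARS2 and VARS2 are lowest, and the longest gap between lines is that of CARS1.

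Genes that work beside the synthetases were followed as lists chosen by role. Of the 9 genes that sense uncharged tRNA or read out ATF4, 6 rose and 0 fell in Huh-7, where 21.2% of all genes rose. In Hep-3B 2 rose and 0 fell, a share near the 16.8% of all genes that rose there. In Huh-7 the risen genes were ATF4 itself, with 572, 526 and 460 CPM in siARD1 libraries against 364, 367 and 390 CPM in controls (log2 fold change 0.48, edgeR adjusted p = 9.394e-06), and the ATF4-induced genes CHAC1 (1.43), TRIB3 (1.13), DDIT3 (0.95) and SESN2, besides GCN1, the partner of GCN2. Huh-7 siARD1 replicate 3 was the lowest of its group for ATF4, TRIB3 and CHAC1. Among the 19 cytosolic synthetases it was the lowest for 12, AARS1 included, and the highest for 6. Among the 16 mitochondrial ones it was the lowest for 0 and the highest for 11. A link between these levels was not tested. In Hep-3B ATF4 had 428, 442 and 414 CPM with siARD1, against 488, 452 and 465 CPM in controls, all 3 siARD1 libraries being lower, and was not called (-0.13, edgeR adjusted p = 0.08964). The Hep-3B rises were ASNS, asparagine synthetase, at 0.66 (edgeR adjusted p = 2.248e-05) and CHAC1 at 0.37 (edgeR adjusted p = 0.01312). DDIT3, TRIB3 and SESN2 were not called in Hep-3B. The genes of this list not called in Huh-7 were ASNS, EIF2AK4 and IMPACT. Without Hep-3B control 1 this list gave 2 rises and 1 fall, that of TRIB3 at -0.28.

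Of the 4 mitochondrial charging partners, GATB and GATC fell in Hep-3B, by 0.45 and 0.57 on the log2 scale, and QRSL1 and GATB rose in Huh-7, by 0.36 and 0.31. MTFMT, which formylates the initiator methionyl-tRNA, was not called in either line. In the list for proofreading and selenocysteine charging, DTD1, which removes D-amino acids from tRNA, rose in Hep-3B by 0.70 (edgeR adjusted p = 2.44e-04) and SEPSECS, which makes selenocysteine on its tRNA, rose there by 0.46 and fell in Huh-7 by 0.22. The other 4 of that list were not called. Among 6 genes of tRNA end maturation and export, XPOT, the exporter of mature tRNA, rose in both lines, by 0.32 in Hep-3B and 0.43 in Huh-7. TRNT1, which adds the CCA end, RTCB, the tRNA ligase, and ELAC2, which trims the 3′ end, rose in Huh-7, while ELAC2 and LAGE3 fell in Hep-3B. Of 9 elongation factors counted, EEF1A1, EEF2 and GFM1 fell in Hep-3B, by 0.21, 0.26 and 0.21, and EEF1A1, EEF1B2 and GFM1 rose in Huh-7, by 0.29, 0.25 and 0.37. Beside these short lists, 16.8% of all genes tested rose and 15.3% fell in Hep-3B, and 21.2% rose and 18.9% fell in Huh-7.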

How the data were processed

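Gene-level RNA-seq counts were analysed in 12 libraries, in the groups given by the labels. The authors deposited raw counts per Ensembl gene, 1 table per line. The submitters' processing notes name cutadapt 4.6, STAR 2.7.11b and GRCh38. For counting, the tool, annotation and strand were not given in the sources used here. Total counts ran from 17327615 to 25960237 per library.

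Members, lists, tests and named genes were chosen with earlier results of these data known, so lists are described by counts and medians with no test. All 38 members are named. Of the context lists, values are given for up to 4 genes per list and line, by smallest p, and others are named to complete a count. TRIB3 without Hep-3B control 1 was named after its value was seen. NAA10 stands first as the label check.

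Each line was fitted in R 4.3.3 with edgeR 4.0.16: filterByExpr (minimum count 10, minimum total 15), TMM factors, robust quasi-likelihood F-test, Benjamini-Hochberg adjustment over all genes tested, threshold 0.05. Rose and fell mean past that threshold. SE was taken as the size of the log2 change divided by the root of F, and intervals of a fold (95%, z of 1.96) use it, so both are approximate and cover the spread between libraries. An exact two-sided permutation test of 3 against 3 cannot go below p = 0.1 and was not used. The difference between lines is the interaction in a fit of the 4 groups. TPM were computed here from counts and GENCODE v29 exon lengths, for genes holding 99.6 to 99.7% of counts. DESeq2 1.42.0, RLE or upper-quartile factors, other count filters, all groups in one fit, a replicate block, a threshold of 0.01, and each library left out in turn were tried. Promoter letters are from RefSeq. Steps were tested on simulated data. Figures used matplotlib 3.10.9.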

Additional observations from a re-analysis of the deposited data

Results flagged for a closer look

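The siARD1 effect differed between the lines in 16 of the 38 genes by the interaction test in one edgeR fit (adjusted p under 0.05), which is why each is given here as Hep-3B effect minus Huh-7 effect on the log2 scale. The cytosolic genes were CARS1 (-0.66), FARSA (-0.76), GARS1 (-0.39), HARS1 (-0.75), KARS1 (-0.29), RARS1 (-0.36), TARS1 (-0.65) and VARS1 (-0.36). The mitochondrial genes were AARS2 (-0.52), EARS2 (-0.91), HARS2 (-0.61), MARS2 (-0.72), TARS2 (-0.29) and YARS2 (-0.97). The scaffold genes were AIMP2 (-0.64) and EEF1E1 (0.82). GARS1, KARS1 and TARS2 are the least firm of these, with edgeR adjusted p of 0.02918, 0.0275 and 0.03012, and lost their calls in 9, 5 and 5 of the 12 refits that leave out 1 library.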

How the results depend on the processing

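At a false discovery rate of 0.01, 3073 genes were called in Hep-3B, with 2 cytosolic rises and 2 cytosolic falls. With upper-quartile factors 1 mitochondrial gene, TARS2, fell in Huh-7. Leaving out 1 library in turn gave 2 to 8 cytosolic rises and 2 to 5 cytosolic falls in Hep-3B, 6 to 14 cytosolic genes lower in Hep-3B by the difference between lines, and a cytosolic minus mitochondrial median of 0.17 to 0.34 in Huh-7, the highest without siARD1 replicate 3. The 2 rises and 2 falls came without Hep-3B siARD1 replicate 1 or 3, and the 2 falls also without control 3. Signs turned in 39 refits of 17 values, and neither those values nor the refits with the turned sign passed the threshold. EPRS1 in Hep-3B became 0.0034 with RLE factors, 0.0035 with DESeq2, 0.0045 with no filter and 0.0024 with the block, and PARS2 -0.0143 with upper-quartile factors. Over single libraries left out, the Hep-3B values ran from -0.0556 to 0.0895 (EPRS1), -0.0719 to 0.1223 (PARS2), -0.2005 to 0.0721 (WARS2), -0.0479 to 0.1602 (GARS1), -0.0147 to 0.1462 (LARS1), -0.0767 to 0.0143 (RARS1) and -0.014 to 0.099 (NARS2). The Huh-7 values ran from -0.0723 to 0.0156 (RARS2), -0.3095 to 0.7123 (VARS2), -0.0175 to 0.1136 (AARS2) and -0.0289 to 0.0057 (CARS2). The differences between lines ran from -0.104 to 0.1346 (SARS1), -0.1266 to 0.2702 (WARS1), -0.0737 to 0.041 (RARS2), -0.2327 to 0.0395 (IARS1), -0.1736 to 0.0361 (NARS1) and -0.1885 to 0.0467 (YARS1). The causes were not tested. Of the other alternative values of single members, 33 gained and 58 lost a call and 1615 did neither.

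Whether replicate numbers pair the libraries could not be settled. In Hep-3B deviations of same-numbered libraries correlated at 0.0292, 0.104 and 0.095, and those of different numbers at -0.091 to -0.0054. In Huh-7 same-numbered libraries gave 0.0988, -0.1048 and 0.0128, and different numbers gave -0.1718 to 0.1827. With the replicate number as a block 5597 genes were called in Hep-3B and 6328 in Huh-7, against 5070 and 6388 without it. The block gave 5606 differences between the lines, against 5380, and 13796 between controls, against 13821. WARS1 in Hep-3B was not called under the block (edgeR adjusted p = 0.1013), IARS1 was (0.03608), and so was the difference of LARS1. Further single calls were lost in Hep-3B with upper-quartile factors (MARS1 0.05779, SARS1 0.05715) and in one fit of all groups (CARS1 0.08942, SARS1 0.05099), and in Huh-7 for HARS2 (0.1007 and 0.07948) and, in one fit, SARS1 (0.102), all edgeR adjusted p. Low counts limit SARS2 and VARS2 most, but not alone. In Huh-7 FARS2 and WARS2 had log2 fold changes of 0.20 each, with SE 0.12 and 0.14, and were not called. HARS1, at 0.22 with SE 0.06, was called there. The part of read depth in the class counts of calls was not tested.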
